A study of Mus musculus with 12 samples.

Results

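Enzymes that modify foreign and reactive compounds, with the transporters that carry their products out of the cell, were followed in cultured mouse hepatic progenitor cells given IL-4 or IL-13. The genes were taken by symbol: cytochrome P450s of numbered families other than Cyp51, UDP-glucuronosyltransferases (Ugt), glutathione S-transferases (Gst), sulfotransferases (Sult), aldehyde dehydrogenases (Aldh) and ABCC transporters, together with the antioxidant genes Nqo1, Gclc, Gclm, Hmox1, Txnrd1 and Srxn1. The beadchip annotation held 182 such genes. A gene was kept where a probe was detected above the chip's background (a detection p below 0.05) on 4 or more of the 12 arrays, and the probe with the highest mean stood for it. This left 73 genes (40.1% of the 182), among 10453 genes that the same rule kept of all 19057 with a symbol. The choice used detection over all arrays and no difference between groups.

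The cells had been sorted as live cells that carried EpCAM, CD24 and CD133 and lacked CD45, CD31 and TER119, which mark leukocytes, endothelium and red cells. All groups were grown with 10 ng/mL each of IL-6, hepatocyte growth factor and epidermal growth factor and with 100 nM dexamethasone, and all were deprived of serum for 24 hours. The control group then received bovine serum albumin vehicle, the IL-4 group IL-4 at 50 ng/mL and the IL-13 group IL-13 at 50 ng/mL, with 4 arrays a group. The labels state neither the mouse strain and age nor the time in cytokine, and nothing says that the 4 arrays came from separate cultures. The spread behind each p-value is thus one between arrays and may be technical. Each of 2 chips held 2 arrays of every group. The groups always took the same positions on a chip, and position and group cannot be told apart.

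In liver, drug and xenobiotic handling runs in stages. Cytochrome P450s and aldehyde dehydrogenases oxidise a compound, UGTs, GSTs and sulfotransferases attach a sugar acid, glutathione or sulfate, and ABCC proteins pump the conjugate into bile, blood or medium. Glutathione is made in a pathway whose first step is run by glutamate-cysteine ligase, with Gclc as the catalytic and Gclm as the modifier subunit, and the transcription factor NRF2 drives many of these antioxidant genes. IL-4 and IL-13 use receptors with a chain in common, which activate STAT6, a transcription factor.

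The beadchip carries 45281 probes, of which each array detected 18469 to 19869. Within a group, arrays had correlations of 0.993 to 0.997, and 0 pairs held identical values. The labelled cell type was partly borne out by its markers. Cd24a and the duct keratin Krt19 were detected on all 12 arrays, Prom1, which encodes CD133, on 5, and Epcam on 0. Of 15 hepatocyte genes, Ttr, Apob, Ass1, Serpina1c and Hnf4a were detected on all 12 arrays, and 5, albumin (Alb) among them, on 0. Also on all 12 were Cd14 and Csf1r, the 2 measured of 10 macrophage genes. So were Eng and Egfl7, of the 3 measured among 10 endothelial genes. Of the marker lists, duct and progenitor genes gave 0 rises and 1 fall with each cytokine among 5 measured (Krt7, with differences of -0.36 and -0.44). Hepatocyte genes gave 1 rise among 7 measured of 15 (Apoa1, seen on 2 control arrays and on all treated ones), and their summed log2 signal ran from 46.9 to 47.6 in controls, 47.8 to 49.6 with IL-4 and 48.3 to 50.0 with IL-13. Apoa1 met the detection rule only with its treated arrays, which favours a rise. The macrophage (2 measured), lymphocyte (1) and endothelial (3) lists gave no call, and the stellate list (4) gave 1 fall, of Acta2 with IL-13 (-2.07), with sums of 21.2 to 22.3, 20.2 to 21.3 and 19.5 to 21.1 in the same order. In such bulk samples fewer cells of a type and less RNA per cell cannot be told apart. Hemoglobin genes read higher on 3 arrays, with mean log2 signals of 8.95 on IL-4 4, 6.77 on IL-4 2 and 5.95 on control 4, against 5.36 on IL-4 1 and 4.40 to 4.80 on the other 8, while the erythroid list (4 measured of 12) gave no call, with sums of 17.8 to 22.3 in controls, 18.4 to 31.4 with IL-4 and 17.8 to 18.9 with IL-13. The part of these lists in the results was not tested. Values without these 3 arrays stand beside the calls that end without them and the differences that move by over 1.5 times.

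The share of genes that passed the detection rule differed between families, to be read beside 10453 of all 19057 genes with a symbol on the beadchip. The plot of detection by family shows that 52 P450 genes, including Cyp1a1, Cyp1a2, Cyp2e1, Cyp3a11 and the bile acid enzyme Cyp7a1, were above background on 0 arrays, and that 19 of 86 P450 genes were measured. Among GSTs 17 of 23 were measured (73.9%), among ABCC transporters 7 of 10, aldehyde dehydrogenases 12 of 20, UGTs 8 of 21 and sulfotransferases 5 of 16. Of the antioxidant genes 5 of 6 were measured, and Nqo1, a quinone reductase much used as an NRF2 readout, was detected on 0 arrays. In all, 82 of the 182 genes were seen on 0 arrays, 27 on 1 to 3, 11 on 4 to 11 and 62 on all 12. Just inside the rule were Abcc6, Cyp2b19 and Ugt3a1, on 4 arrays each with mean log2 signals of 4.50, 4.50 and 4.58. Just outside, on 3 arrays, were Abcc9, Cyp24a1, Cyp26a1, Cyp2c37, Gstt3 and Sult2a1. A gene missing here is below what these probes could show, which is not a measure of its absence.

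**Figure D1:**
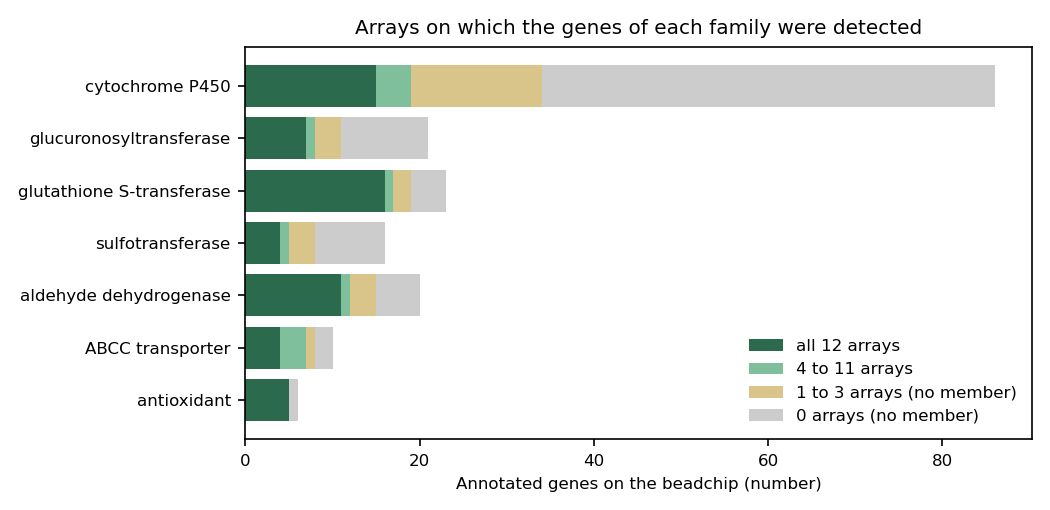
Number of annotated genes of each family on the beadchip (horizontal axis), divided by the number of the 12 arrays on which the gene's probe was detected. The grey block of P450 genes detected on 0 arrays is the largest (52 of 86), and 16 of 23 glutathione S-transferases were detected on all 12.

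With IL-4, 9 of the 73 genes rose and 6 fell at a Benjamini-Hochberg adjusted p under 0.05 in one limma model over all 12 arrays, which is 20.5% of them, beside 3.47% of all genes tested. Of all genes 2.15% rose and 1.32% fell. With IL-13, 13 rose and 7 fell (27.4%), beside 5.73% of all genes, 3.50% up and 2.23% down. With the submitters' own processed values, which have no background correction, the numbers were 6 up and 6 down with IL-4 and 8 up and 7 down with IL-13, and over all genes 120 up and 294 down, and 203 up and 406 down, in place of 225 and 138, and 366 and 233. The median difference over the 73 genes was 0.05 with IL-4 and 0.06 with IL-13 on the log2 scale, against -0.01 for all genes with either, with calls on both sides of 0. Without regard to sign, the median size of the difference was 0.14 and 0.19, against 0.08 and 0.09 for all genes, and 34.2% and 47.9% of the 73 genes had an unadjusted p under 0.05, against 14.1% and 17.8%. Both comparisons use the same 4 control arrays. The genes that rose with IL-4 included 8 of the 13 that rose with IL-13 (8 of 9 read from the IL-4 side), and the genes that fell included 6 of the 7 (6 of 6). All 21 genes called with either cytokine were detected on all 12 arrays.

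By family, UGTs had 5 of 8 genes called with each cytokine, 2 up and 3 down. P450s had 4 of 19 called with IL-4 (3 up, 1 down) and 7 with IL-13 (5 up, 2 down), and ABCC transporters had 2 of 7 called, both down, with each. The calls among aldehyde dehydrogenases (1 of 12 with IL-4, 2 with IL-13), GSTs (1 and 2 of 17), sulfotransferases (1 of 5 with each) and antioxidant genes (1 of 5 with each) were all rises. Families were not tested against each other, and with so few genes 1 call is already 20% of a family of 5, beside 3.47% and 5.73% of all genes. No family median left the range from -0.08 to 0.12 with either cytokine. The plot of differences by family shows the few filled points of each family standing away from a median near 0.

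**Figure D2:**
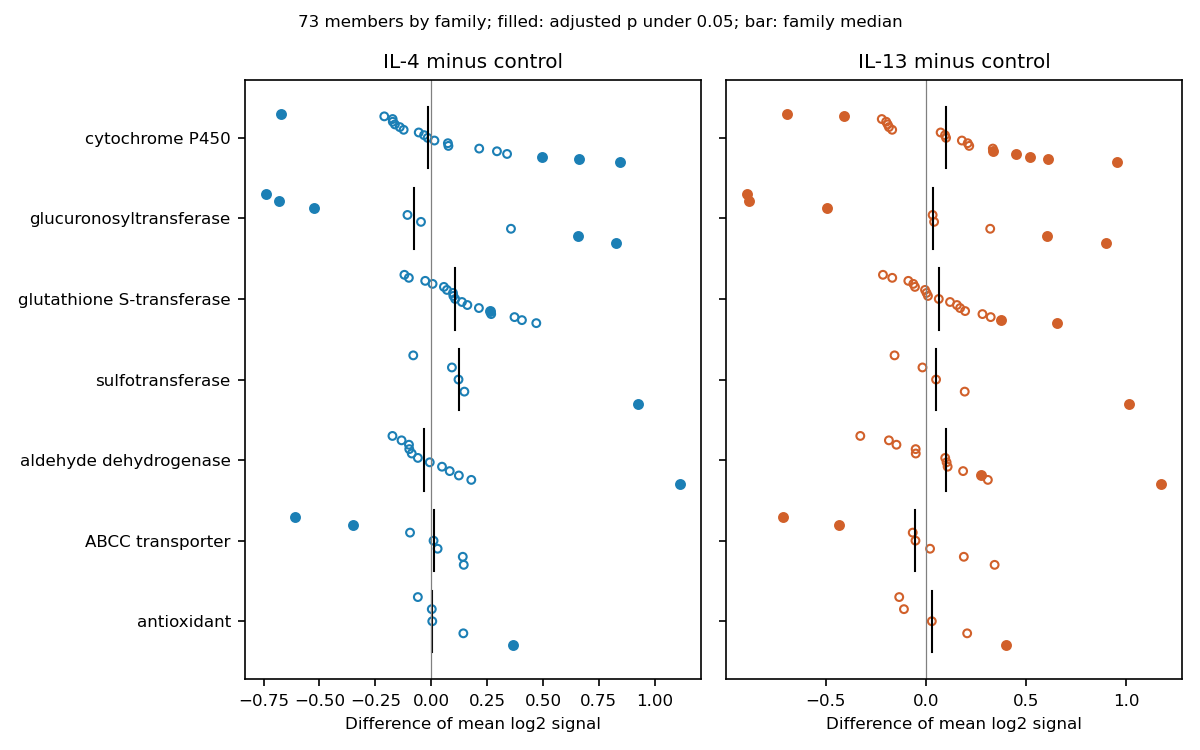
Difference of mean log2 signal from control (horizontal axis) for each of the 73 genes, with IL-4 on the left and IL-13 on the right; filled points passed an adjusted p of 0.05, open points did not, and the black bar is the family median. Glucuronosyltransferases have filled points on both sides of 0, ABCC transporters only below it, and aldehyde dehydrogenases, sulfotransferases and antioxidant genes only above it.

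The start regions of 6 of the genes that rose or fell are shown because the proteins named above, NRF2 and STAT6, and the aryl hydrocarbon receptor bind known short motifs. Each is 300 bases, 250 before the annotated gene start and 50 after it, 5′ to 3′ on the gene's strand, from RefSeq (GRCm38.p6). Of the 73 genes 56 had such a window. Capitals mark the letters TGACNNNGC (the core of the antioxidant response element, bound by NRF2), GCGTG (the core of the xenobiotic response element, bound by the aryl hydrocarbon receptor) or TTC and GAA 4 bases apart (the STAT6 motif), searched on both strands, and a match on the opposite strand is printed as its reverse complement. The windows lie at chr7:126676369-126676668 (minus strand, Sult1a1), chr3:122245307-122245606 (plus, Gclm), chr19:39060756-39061055 (plus, Cyp2c65), chr14:118676882-118677181 (minus, Abcc4, 1 of its 2 windows), chr1:88134559-88134858 (plus, Ugt1a6a) and chr1:88055161-88055460 (plus, Ugt1a10).
Sult1a1: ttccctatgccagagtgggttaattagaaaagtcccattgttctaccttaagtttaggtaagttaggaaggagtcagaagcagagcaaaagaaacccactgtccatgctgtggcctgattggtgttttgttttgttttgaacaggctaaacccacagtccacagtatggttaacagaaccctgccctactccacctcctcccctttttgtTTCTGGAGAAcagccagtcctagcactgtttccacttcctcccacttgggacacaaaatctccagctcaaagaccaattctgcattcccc
Gclm: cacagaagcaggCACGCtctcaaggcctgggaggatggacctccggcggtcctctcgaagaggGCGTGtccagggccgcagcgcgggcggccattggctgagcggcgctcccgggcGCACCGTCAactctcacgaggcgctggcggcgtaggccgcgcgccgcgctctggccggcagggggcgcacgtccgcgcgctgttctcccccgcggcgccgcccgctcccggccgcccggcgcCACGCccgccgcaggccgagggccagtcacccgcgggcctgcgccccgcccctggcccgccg
Cyp2c65: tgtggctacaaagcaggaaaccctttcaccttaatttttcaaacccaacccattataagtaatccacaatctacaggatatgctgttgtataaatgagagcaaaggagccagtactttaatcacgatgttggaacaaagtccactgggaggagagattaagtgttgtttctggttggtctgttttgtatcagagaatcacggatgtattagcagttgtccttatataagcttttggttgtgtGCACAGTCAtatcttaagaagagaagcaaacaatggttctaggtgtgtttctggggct
Abcc4: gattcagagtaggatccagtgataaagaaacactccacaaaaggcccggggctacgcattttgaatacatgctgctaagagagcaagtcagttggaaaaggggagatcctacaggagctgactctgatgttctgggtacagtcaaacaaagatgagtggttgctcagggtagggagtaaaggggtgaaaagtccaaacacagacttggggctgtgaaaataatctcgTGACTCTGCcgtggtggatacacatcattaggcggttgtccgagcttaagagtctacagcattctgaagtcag
Ugt1a6a: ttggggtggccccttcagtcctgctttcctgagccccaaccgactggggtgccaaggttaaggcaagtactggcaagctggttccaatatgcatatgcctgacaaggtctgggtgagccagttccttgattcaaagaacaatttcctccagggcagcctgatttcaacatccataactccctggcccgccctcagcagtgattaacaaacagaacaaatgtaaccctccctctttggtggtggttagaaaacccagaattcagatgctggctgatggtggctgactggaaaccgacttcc
Ugt1a10: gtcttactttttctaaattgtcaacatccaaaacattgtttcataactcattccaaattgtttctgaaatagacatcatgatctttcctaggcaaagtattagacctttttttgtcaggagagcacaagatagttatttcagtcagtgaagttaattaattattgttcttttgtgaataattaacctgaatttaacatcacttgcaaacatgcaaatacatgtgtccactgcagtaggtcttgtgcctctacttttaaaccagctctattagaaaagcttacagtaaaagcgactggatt

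Sult1a1 was the one gene among the risers whose window held the STAT6 letters. Its match begins 40 bases before the start. Gclm and Cyp2c65, which rose, and Abcc4, which fell, hold the antioxidant response element letters. The Gclm window also holds the xenobiotic letters at 3 places. The other Abcc4 window, not shown, holds the antioxidant letters once and the xenobiotic letters at 2 places. The windows of Ugt1a6a and Ugt1a10, which fell, hold none of the 3 motifs. The same is true of Cyp3a13, Gsto1, Gsto2, Ugt2b34 and Ugt2b35, which rose and are not shown. A window of Cyp4f14, which also rose and is not shown, holds the antioxidant letters. With a window, 3 of 12 risers and 1 of 4 fallers held the antioxidant letters, and 5 of 12 and 2 of 4 the xenobiotic letters. The directions were not tested against each other. Over the genes with a window, the antioxidant letters were in 11 of 56 (19.6%) and in 16.7% of all genes, the xenobiotic letters in 22 (39.3%) and in 55.9%, and the STAT6 letters in 3 (5.4%) and in 6.4%. Such matches describe the letters of these windows and are no evidence of binding.

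The largest rise among the oxidising enzymes was that of Aldh3a1, which oxidises aromatic and lipid-derived aldehydes. Its normalised log2 signals were 10.73, 10.75, 10.65 and 10.67 on the control arrays, 11.78, 11.99, 11.73 and 11.76 with IL-4, and 11.83, 11.92, 11.84 and 11.91 with IL-13. Every treated array lay far above every control array, and the treated groups interleaved. The rise was 2.16-fold with IL-4 (log2 1.11 ± 0.07, SE, n = 4 a group, limma adjusted p = 1.85e-08) and 2.26-fold with IL-13 (1.17 ± 0.07, adjusted p = 7.43e-09). Both calls held under each of the 24 alternatives run. Aldh3a2, its neighbour in the genome, which oxidises long-chain fatty aldehydes, averaged 10.88 ± 0.11 (SD, n = 4) in controls and read 10.91 to 11.04 with IL-4 and 11.10 to 11.21 with IL-13. The IL-13 arrays all lay above the others, by 0.28 ± 0.07 over control (adjusted p = 0.0362), while IL-4 differed from control by 0.12 (0.50). Aldh3a2 lost its IL-13 call when any of 7 single arrays (control 1, 2 or 4 or any of IL-13) was left out, with adjusted p up to 0.101, and without the 3 hemoglobin-rich arrays (0.103). A further Aldh3a2 probe gave 0.28 with IL-13 without passing (adjusted p = 0.0699), and another gave -0.03 with IL-4 and 0.03 with IL-13 (0.929). These values are from a limma fit of all probes, in which the gene's own probe did not pass with IL-13 either (0.0554).

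The remaining 10 aldehyde dehydrogenases had no call. Among them Aldh2, the mitochondrial acetaldehyde enzyme, differed by -0.17 and -0.19, and Aldh1a1, which makes retinoic acid from retinaldehyde, by -0.10 with IL-4 and -0.33 with IL-13 (adjusted p = 0.114). Aldh18a1, an enzyme of proline synthesis, differed by -0.01 and 0.31 (0.111 with IL-13).

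Among the P450s that rose was Cyp4f14, whose family hydroxylates leukotrienes and fatty acids at the far end of the chain. It read 5.46, 5.57, 5.41 and 5.19 in controls, 6.09, 6.48, 6.12 and 6.32 with IL-4 and 6.47, 6.44, 6.46 and 6.07 with IL-13. The groups did not overlap with control, and the lowest treated value was 6.07, on IL-13 4. The difference was 0.85 ± 0.11 with IL-4 (adjusted p = 0.000111) and 0.95 ± 0.11 with IL-13 (1.84e-05), and 0.31 and 0.39 with the submitters' values, which also passed. Cyp4f16 of the same gene cluster rose with IL-13 by 0.33 ± 0.08 (adjusted p = 0.0132, or 0.0529 without IL-13 3), from 6.85 to 7.09 in controls to 7.26 to 7.46. With IL-4 it read 7.12 to 7.30, also above every control array, without passing the test (0.21, adjusted p = 0.173, and 0.12 without the hemoglobin-rich arrays), and its 2 further probes passed with neither cytokine. Cyp4f13 (0.08 and 0.22) and Cyp4f40 (-0.03 and 0.18) had no call.

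Cyp3a13, a member of the drug-oxidising CYP3A subfamily, read 8.84, 8.83, 8.92 and 8.81 in controls, 9.50, 9.64, 9.37 and 9.52 with IL-4 and 9.47, 9.47, 9.57 and 9.33 with IL-13. All treated arrays were higher, by 0.66 ± 0.08 with IL-4 (adjusted p = 3.4e-05) and 0.61 ± 0.08 with IL-13 (5.12e-05). Its further probes gave 0.73 and 0.77, which passed, and 0.53 and 0.43, of which the IL-4 value passed. Cyp2c65, an arachidonic acid epoxygenase best known from mouse intestine, read 9.18, 9.29, 9.03 and 9.30 in controls, 9.73, 9.89, 9.47 and 9.69 with IL-4 and 9.77, 9.77, 9.70 and 9.64 with IL-13. The groups stayed apart, with differences of 0.50 ± 0.09 (adjusted p = 0.0028) and 0.52 ± 0.09 (0.00131). Without the hemoglobin-rich arrays the IL-4 value was 0.43 (adjusted p = 0.061). Of the 3 further Cyp2c65 probes 1 passed, with 0.45 and 0.47, and the others gave 0.19 to 0.30.

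Cyp4a12a, which in mouse makes the arachidonic acid product 20-HETE, fell. It read 5.72, 5.89, 5.84 and 6.02 in controls, 5.28, 5.01, 5.25 and 5.24 with IL-4 and 5.25, 5.04, 5.40 and 5.01 with IL-13. No treated array reached the lowest control value, and the fall was 0.67 on the log2 scale (SE 0.10, adjusted p = 0.000298) with IL-4 and 0.69 (SE 0.10, adjusted p = 0.00015) with IL-13. With the submitters' values the differences were -0.26 and -0.26, and both passed. The near-identical Cyp4a12b differed by -0.14 and -0.22 and was not called. Cyp1b1, which oxidises polycyclic hydrocarbons and oestrogens, fell with IL-13 by 0.41 ± 0.11 (adjusted p = 0.0413), from 6.53 to 6.79 in controls to 6.09 to 6.49. With IL-4 it read 6.31 to 6.79 and overlapped with control (-0.21, adjusted p = 0.445). The pseudogene Cyp4b1-ps2 read 5.06 to 5.26 in controls and 5.44 to 5.75 with IL-13 (0.45 ± 0.12, adjusted p = 0.0397), and with IL-4 5.07 to 5.75, which overlapped with control (0.34, and 0.22 without the hemoglobin-rich arrays). Both of these IL-13 calls ended when any of 7 single arrays was left out. For Cyp1b1 these were control 1, 2 or 4, IL-13 1, 2 or 4 and IL-4 3 (adjusted p up to 0.133), and for Cyp4b1-ps2 any control and IL-13 1, 2 or 3 (up to 0.120). Without the hemoglobin-rich arrays the values were 0.0558 and 0.097. A probe of one Cyp4a12 or Cyp4b1 gene may bind the other's transcript, which makes these genes uncertain as separate measurements. The 12 P450 genes called with neither cytokine, among them Cyp8b1 and Cyp39a1 of bile acid synthesis and Cyp2s1, had differences between -0.22 and 0.33.

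The glucuronosyltransferases divided by subfamily. Ugt1a10, Ugt1a6a and Ugt1a6b fell and Ugt2b34 and Ugt2b35 rose with both cytokines. Genes of the Ugt1a locus each have their own first exon and share the rest, and Ugt1a6 enzymes conjugate small phenols. In RefSeq 7 of the 9 Ugt1a genes end at the same base, 3 of the 4 measured ones among them, so a probe in the shared exons would not tell them apart, and the probes' positions were not used here.

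Ugt1a10 read 10.70, 10.61, 10.48 and 10.77 in controls, 10.08, 10.27, 9.99 and 10.12 with IL-4 and 10.13, 10.31, 10.06 and 10.08 with IL-13. The groups stayed apart, and the signal fell by 0.52 ± 0.09 with IL-4 (adjusted p = 0.00108) and by 0.49 ± 0.09 with IL-13 (0.00131). Its 3 further detected probes were lower as well, at -0.39, -0.37 and -0.39 with IL-4, of which the first and last passed, and at -0.40, -0.38 and -0.29 with IL-13, of which the first passed.

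Ugt1a6a read 7.19, 6.72, 6.88 and 7.07 in controls, 6.22, 6.41, 6.09 and 6.19 with IL-4 and 6.51, 6.19, 5.77 and 5.87 with IL-13. It fell by 0.74 ± 0.14 (adjusted p = 0.00325) and by 0.88 ± 0.14 (0.00045). The near-identical Ugt1a6b read 7.74, 7.15, 7.35 and 7.60 in controls, 6.84, 7.12, 6.45 and 6.72 with IL-4 and 7.01, 6.74, 6.14 and 6.38 with IL-13. Both genes were lower on every treated array than on any control array, Ugt1a6b narrowly so for IL-4 2 (7.12) against control 2 (7.15), and the pair ranked the 4 arrays of each group in the same order. Ugt1a6b fell by 0.68 ± 0.17 with IL-4 (adjusted p = 0.0346) and by 0.89 ± 0.17 with IL-13 (0.00325). The IL-4 call ended when control 1, 3 or 4 or IL-4 1, 3 or 4 was left out (up to 0.122), and also without the hemoglobin-rich arrays (0.123). With IL-13 the falls were deeper on chip 2 (-1.16 for Ugt1a6a and -1.22 for Ugt1a6b) than on chip 1 (-0.61 and -0.57), a difference that was not tested. Of the 2 further Ugt1a6a probes one gave -0.56 and -0.57 and the other -0.08 and -0.09, and neither passed. Ugt1a7c, also of this locus, differed by -0.11 and 0.04.

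Ugt2b enzymes conjugate steroids and bile acids among other substrates. The start windows of Ugt2b34, Ugt2b35 and Ugt2b36 begin at 86906888, 87000610 and 87092506 on chromosome 5. Ugt2b34 read 5.96, 6.25, 6.18 and 6.01 in controls, 6.69, 6.73, 6.81 and 6.80 with IL-4 and 6.50, 6.76, 6.64 and 6.93 with IL-13. All treated arrays were above all controls, by 0.66 ± 0.09 (adjusted p = 0.000237) and 0.61 ± 0.09 (0.0004), or 0.29 with each in the submitters' values, where both passed. Ugt2b35 read 4.90, 5.37, 4.74 and 4.93 in controls, 5.82, 5.96, 5.37 and 6.09 with IL-4 and 5.84, 5.77, 6.01 and 5.91 with IL-13. The IL-13 arrays stayed clear of control, while IL-4 3 and control 2 both read 5.37. The rise was 0.83 ± 0.14 with IL-4 (adjusted p = 0.00147, or 0.109 without the hemoglobin-rich arrays) and 0.90 ± 0.14 with IL-13 (0.00046). In the submitters' values it was 0.27 and 0.30, and both passed. Ugt2b36 differed by 0.36 and 0.32 and just missed the threshold (adjusted p = 0.0535 and 0.0674). Its further probe gave 0.47 with each and passed (0.0359 and 0.0264 in a fit of all probes). The plot of single Ugt probes sets the Ugt1a probes on one side of 0 or near it and the Ugt2b probes on the other.

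**Figure D3:**
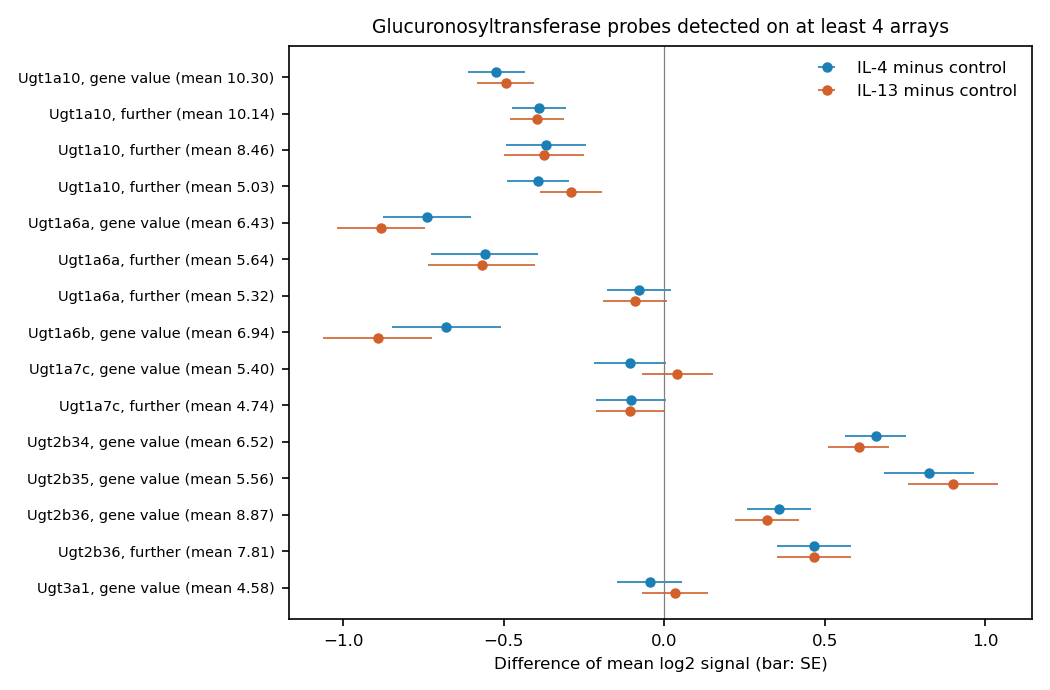
Difference of mean log2 signal from control (horizontal axis) for each glucuronosyltransferase probe detected on at least 4 arrays, with IL-4 in blue and IL-13 in orange; points are the fitted difference, bars its SE, and the number in each label is the probe's mean log2 signal. The Ugt1a10 and Ugt1a6 probes lie below 0, 1 of them (Ugt1a6a, -0.08 and -0.09) within its SE of 0, and all 4 Ugt2b probes lie above it.

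Sulfotransferases gave 1 call. Sult1a1, which sulfates phenols, read 6.93, 7.16, 7.22 and 7.65 in controls, 8.33, 8.39, 7.83 and 8.12 with IL-4 and 8.21, 8.31, 8.29 and 8.21 with IL-13. The controls were the most spread group (SD 0.30, against 0.05 with IL-13), and control 4 came nearest to the treated arrays without reaching them. The rise was 1.90-fold with IL-4 (0.92 ± 0.13, adjusted p = 0.000282) and 2.02-fold with IL-13 (1.01 ± 0.13, 7.51e-05). With IL-4 it was 1.31 on chip 1 and 0.54 on chip 2, where it did not pass alone (0.229), and with IL-13 1.21 and 0.81, both past the threshold. Sult1c2, Sult1d1, Sult2b1 and Sult4a1 had differences between -0.16 and 0.19.

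The glutathione S-transferases had 1 call of 17 (5.9%, beside 3.47% of all genes) with IL-4 and 2 of 17 (11.8%, beside 5.73%) with IL-13. Of the 17, 35.3% and 41.2% had an unadjusted limma p under 0.05, beside 14.1% and 17.8% of all genes. The mu-class genes Gstm1, Gstm2, Gstm4, Gstm5 and Gstm6, the alpha-class genes Gsta1 to Gsta4 and Gstp1 had differences between -0.21 and 0.28 and no call. The calls were 3, each with 1 cytokine. Gsto1, an omega-class enzyme that reduces dehydroascorbate and mixed disulfides, read 13.35, 13.47, 13.40 and 13.39 in controls, 13.57, 13.68, 13.68 and 13.73 with IL-4 and 13.60, 13.67, 13.48 and 13.54 with IL-13. It was above control on all 8 treated arrays, by 0.26 ± 0.07 with IL-4, which passed narrowly (adjusted p = 0.0498), and by 0.17 ± 0.07 with IL-13 (0.199). Leaving out any array other than IL-13 3 ended the call (11 of 12, up to 0.143), as did leaving out the hemoglobin-rich arrays (0.348). Its neighbour and class member Gsto2 read 6.24 to 6.58 in controls, 6.70 to 7.08 with IL-4 and 6.68 to 6.96 with IL-13. The difference was 0.37 with IL-4 (adjusted p = 0.0525) and 0.38 ± 0.10 with IL-13 (0.0372), and the IL-13 call ended without any of 5 single arrays (control 1, 2 or 3 or IL-13 1 or 2, up to 0.120). A further Gsto2 probe gave 0.07 with each.

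Gstp3, of the pi class, read 5.84, 6.08, 5.72 and 5.81 in controls, 6.17, 6.53, 6.01 and 6.63 with IL-4 and 6.36, 6.36, 7.02 and 6.34 with IL-13. IL-13 3 stood out above the rest of its group, and IL-4 3 lay among the controls. The rise was 0.65 ± 0.15 with IL-13 (adjusted p = 0.0144), at 0.40 on chip 1 and 0.91 on chip 2, and the IL-4 difference of 0.47 did not pass (0.116) and was 0.21 without the hemoglobin-rich arrays. The IL-13 call of Gstp3 ended with the submitters' values (0.30, adjusted p = 0.0947), without the filter on detection (0.0551) and on each chip alone (0.193 and 0.065). Gstt1 came close with IL-4 (0.41, adjusted p = 0.055).

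Among the ABCC transporters, the 2 calls were the exporters Abcc3 and Abcc4, which send bile acids and conjugates out through the blood-facing membrane of liver cells. Abcc3 read 8.29, 8.31, 8.22 and 8.63 in controls, 7.66, 7.79, 7.74 and 7.82 with IL-4 and 7.51, 7.53, 7.92 and 7.64 with IL-13. It was lower on every treated array, 1.53-fold with IL-4 (-0.61 ± 0.10, adjusted p = 0.00115) and 1.64-fold with IL-13 (-0.71 ± 0.10, 0.000166). Abcc4 read 10.79, 10.91, 10.91 and 10.69 in controls, 10.36, 10.39, 10.61 and 10.55 with IL-4 and 10.33, 10.38, 10.49 and 10.35 with IL-13. The groups did not overlap with control here either. Abcc4 fell by 0.35 ± 0.08 with IL-4 (adjusted p = 0.0175) and by 0.44 ± 0.08 with IL-13 (0.00219). The IL-4 call ended without control 2 (0.0657), control 3 (0.0649), IL-4 1 (0.0722) or IL-4 2 (0.0697), and without the hemoglobin-rich arrays (0.0728). Abcc2, the exporter into bile, was detected on 11 arrays and differed by 0.14 and 0.19, and Abcc1, Abcc5, Abcc6 and Abcc10 lay between -0.09 and 0.34 with no call. Abcc2, Abcc1 and Abcc6 had mean log2 signals of 4.80, 4.52 and 4.50, near the background, where differences are compressed. They are thus not shown to be unchanged. Over genes detected on all arrays the family median was -0.17 with IL-4 and -0.21 with IL-13.

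Of the antioxidant genes Gclm alone was called. It read 10.19, 10.02, 10.05 and 10.03 in controls, 10.46, 10.47, 10.55 and 10.28 with IL-4 and 10.47, 10.56, 10.41 and 10.46 with IL-13. Every treated array was above every control array, by 0.37 ± 0.08 with IL-4 (adjusted p = 0.00833) and 0.40 ± 0.08 with IL-13 (0.00288). The IL-4 call ended with the submitters' values (0.25, adjusted p = 0.0626), and neither call passed on a single chip (adjusted p for IL-4 0.113 on one and 0.355 on the other, for IL-13 0.0759 and 0.186). The catalytic partner Gclc overlapped between groups, at 5.27 to 5.85 in controls, 5.51 to 5.78 with IL-4 and 5.53 to 5.69 with IL-13, with differences of 0.14 (95% interval -0.08 to 0.36) and 0.03 (-0.19 to 0.25). Heme oxygenase 1 (Hmox1) differed by 0.00 with IL-4 (-0.18 to 0.19) and by -0.11 with IL-13 (-0.30 to 0.08), and thioredoxin reductase 1 (Txnrd1) by -0.06 (-0.26 to 0.14) and -0.13 (-0.34 to 0.07). These intervals leave out a change of the size seen for Aldh3a1, the largest of the set, which says little about smaller ones. The Gclc interval with IL-4 reached 0.36, next to the 0.37 seen for Gclm. Srxn1, which repairs oxidised peroxiredoxins, read 8.57 to 8.69 in controls, 8.47 to 8.72 with IL-4 and 8.75 to 8.93 with IL-13. Its IL-13 arrays lay above all others, with a difference of 0.21 ± 0.08 from control that did not pass (adjusted p = 0.14). Further Srxn1 probes gave 0.06 and -0.09 with IL-13 and -0.03 and 0.20 with IL-4, and none passed.

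The plot of single arrays shows all 21 called genes. With IL-4 the groups did not overlap for 14 of the 15 calls, Ugt2b35 being the exception, and with IL-13 for all 20. The calls were made on these same arrays, so this largely restates them. Over the 73 genes, 10 lay wholly above control with IL-4 (13.7%, against 4.32% of all genes) and 6 wholly below (8.2%, against 4.11%). With IL-13 the counts were 19 above (26.0%, against 6.03%) and 7 below (9.6%, against 4.92%).

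**Figure D4:**
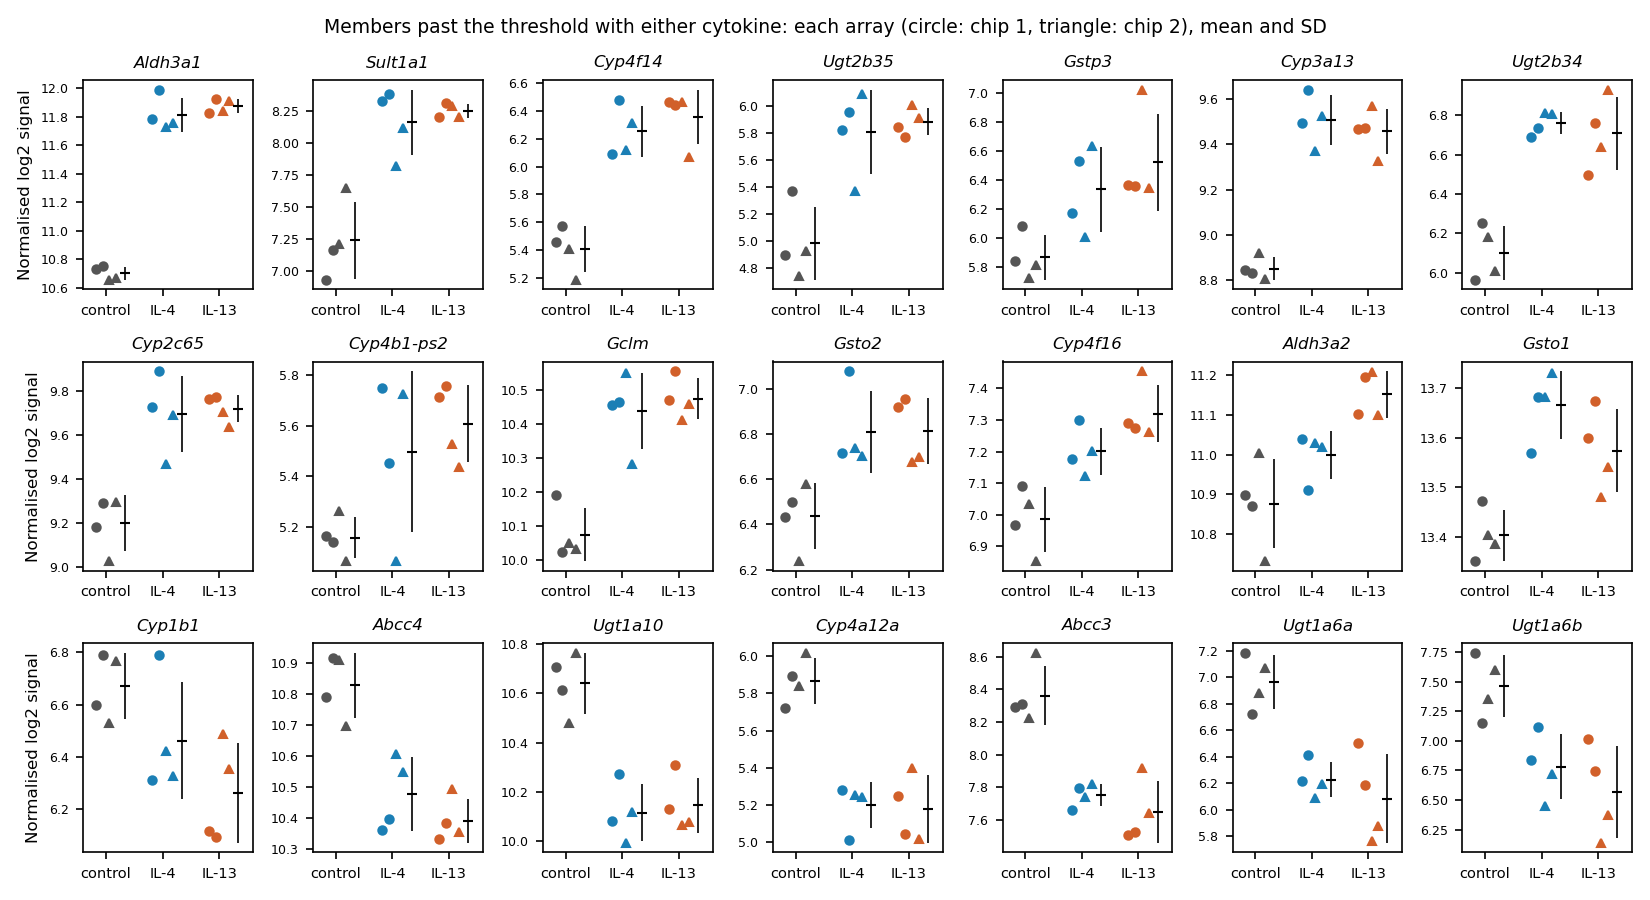
Normalised log2 signal (vertical axis, scaled separately for each gene) on every array for the 21 genes called with either cytokine, with circles for chip 1, triangles for chip 2, and the group mean with its SD beside the points (n = 4 a group). The IL-4 and IL-13 points sit at similar heights, above control for the first 14 genes and below it for the last 7; the overlaps with control are those of IL-4 in Ugt2b35, Gstp3, Cyp4b1-ps2, Aldh3a2 and Cyp1b1.

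IL-13 was then compared with IL-4 directly. None of the 73 genes passed, and none of all 10453 did (0%), while 4 of the 73 and 852 of all genes (8.15%) had an unadjusted p under 0.05. The 4 were Cyp4v3 (0.26), Aldh18a1 (0.32), Srxn1 (0.20) and Cyp2s1 (0.22), with adjusted p from 0.451 to 0.577. Over the 73 genes the difference ran from -0.23 to 0.32, and the 95% intervals together reached from -0.57 to 0.54. For Aldh3a1 the interval was -0.10 to 0.21, for Abcc3 -0.32 to 0.11 and for Ugt1a6b -0.57 to 0.15. Genes past the threshold with one cytokine alone, Gsto1 with IL-4 and Aldh3a2, Cyp4b1-ps2, Cyp4f16, Gsto2, Gstp3 and Cyp1b1 with IL-13, were therefore not shown to differ between the cytokines, with differences from -0.20 to 0.18 and adjusted p from 0.611 to 0.997. The IL-13 arrays lay wholly above the IL-4 arrays for 5 of the 73 genes (6.8%, against 3.24% of all genes) and wholly below for 0 (against 2.07%).

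The calls were also examined by chip and without the hemoglobin-rich arrays. All 15 IL-4 calls and all 20 IL-13 calls had the same sign on chip 1, on chip 2 and without control 4, IL-4 2 and IL-4 4. These are parts of the arrays that gave the calls, so the shared sign was largely set in advance and is no separate support. Without these 3 arrays 6 genes rose and 4 fell with IL-4 (in place of 9 and 6), and 12 rose and 6 fell with IL-13 (in place of 13 and 7). With the submitters' processed values, every call had the same sign. The differences shrank by over 1.5 times for Cyp4f14, Cyp4a12a, Ugt2b34, Ugt2b35 and Ugt1a6a (-0.44 and -0.48) with both cytokines, for Gsto1 (0.15) and Sult1a1 (0.60) with IL-4, and for Ugt1a6b (-0.56), Aldh3a2 (0.16), Cyp1b1 (-0.23), Cyp4b1-ps2 (0.15), Cyp4f16 (0.19), Gsto2 (0.19) and Gstp3 (0.30) with IL-13. The calls that ended there were those of Cyp2c65 (adjusted p = 0.0633), Gclm and Gsto1 (0.215) with IL-4 and of Aldh3a2 (0.248), Cyp1b1 (0.0634), Cyp4b1-ps2 (0.148), Cyp4f16 (0.107), Gsto2 (0.127) and Gstp3 with IL-13. Calls that held under every alternative were those of Aldh3a1, Cyp4a12a, Cyp4f14 and Ugt2b34 with IL-4 and of Aldh3a1, Cyp3a13, Cyp4a12a, Cyp4f14, Sult1a1 and Ugt2b35 with IL-13.

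**Figure D5:**
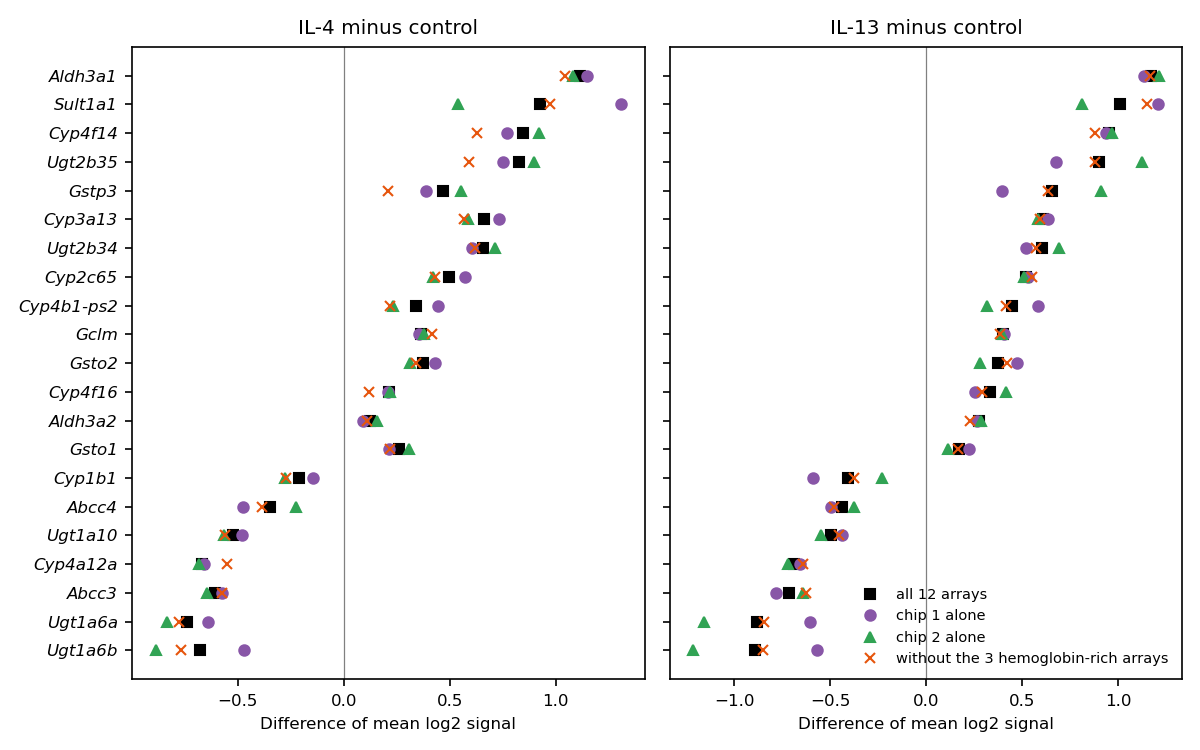
Difference of mean log2 signal from control (horizontal axis) for the 21 called genes, in all 12 arrays (squares), on chip 1 alone (circles), on chip 2 alone (triangles) and without the 3 hemoglobin-rich arrays (crosses). Each gene's 4 points lie on one side of 0 with both cytokines, and the widest spread between chips with IL-13 is that of Ugt1a6b (-0.57 and -1.22).

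Genes around these families were counted in lists of known function, to be read beside the 2.15% of all genes that rose and 1.32% that fell with IL-4 and the 3.50% and 2.23% with IL-13. Among 19 measured sensors and regulators, 0 changed with IL-4, and with IL-13 Sqstm1, which binds the NRF2 inhibitor KEAP1, rose (0.29, adjusted p = 0.0322) and the bile acid receptor Nr1h4 fell (-0.29, 0.0227). Nfe2l2, which encodes NRF2, differed by -0.13 and -0.30 without passing (0.649 and 0.107), as did the constitutive androstane receptor gene Nr1i3 (0.10 and -0.07, detected on 10 arrays), and the receptors Ahr, Nr1i2 and Ppara were detected on 0 arrays. Of 17 further NRF2 targets 2 rose with IL-4 and 3 with IL-13. They were the malic enzyme gene Me1 (0.94 and 0.88), the peroxidase gene Gpx2 (0.82 and 0.60, detected on 2 control arrays) and, with IL-13, the transketolase gene Tkt (0.36), and none fell. Gpx2 met the detection rule only with its treated arrays, which favours a rise.

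Glutathione, thioredoxin and peroxide genes had 5 rises and 1 fall with IL-4 and 4 rises with IL-13 among 30 measured. Glutathione synthetase (Gss), which completes glutathione after the step that Gclm assists, rose by 0.39 ± 0.07 (adjusted p = 0.00317) and 0.40 ± 0.07 (0.0018). Chac1, which degrades glutathione, rose as well (0.32 and 0.30), as did Gpx2 and the thioredoxin inhibitor Txnip (0.53 and 0.72). Gpx2 is the gene already counted among the NRF2 targets. Because it met the detection rule only with its treated arrays, its calls lend neither list support. Prdx4 rose with IL-4 (0.45) and the metallothionein gene Mt1 fell with it (-0.33). Among 27 other phase I and II enzymes, none was called with IL-4, while with IL-13 Xdh rose (0.44) and Nnmt fell (-0.53).

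Of 9 other drug and bile salt transporters measured, Slc22a18 rose with both cytokines (0.67 and 0.71), Slco2b1 as well (0.32 and 0.59, detected on 0 control arrays and so at least 1.05-fold and 1.27-fold higher) and Abcb1b with IL-13 (0.38), and none fell. Slco2b1 met the detection rule through treated arrays alone (7 arrays), which favours a rise, so its call lends the list no support. Aryl hydrocarbon receptor targets included 5 of the genes above, and of 7 measured 1 rose with each cytokine (Aldh3a1), while 2 fell with IL-4 and 3 with IL-13 (Ugt1a6a, Ugt1a6b and, with IL-13, Cyp1b1). Cyp1a1, Cyp1a2 and Nqo1 of that list were detected on 0 arrays. In the retinoid list, with 12 measured, transglutaminase 2 (Tgm2) rose with both (0.94 and 1.25) and the retinol carrier receptor Stra6 with IL-13 (0.54). The lists' median differences stayed between -0.05 and 0.11, apart from the aryl hydrocarbon receptor targets (-0.12 with IL-4 and -0.21 with IL-13).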

How the data were processed

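RNA of 12 samples of cultured cells, 4 for each of vehicle, IL-4 and IL-13, was hybridised to Illumina mouse beadchips after Trizol extraction, column clean-up, TotalPrep amplification and Cy3 labelling, per the labels. The submitters' processing notes name GenomeStudio 2011.1 and give none of its settings. For each of 45281 probes the authors deposited an intensity on a linear scale, neither background-subtracted nor normalised. Beside it stands, per the file headers, the scanner software's detection p-value. The deposited processed table holds log2 values, which a comparison showed to be each array's log2 intensity plus a constant (2.22 to 2.34) that sets its median to 8.97.

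Intensities were normalised with neqc in limma 3.58.1 (R 4.3.3), a background correction built on the detection p-values, an offset of 16, common quantiles and log2 in turn. Differences of dim probes are pulled toward 0 by that offset. Probes detected (p under 0.05) on at least 4 of 12 arrays were kept (19915). Genes were named from the platform annotation, in which 34885 probes had 1 symbol, 18 several and 10378 none, and 34807 (99.8%) were matched to RefSeq by gene identifier. The 3 comparisons came from one lmFit and eBayes model over 12 arrays and 10453 genes, two-sided, with Benjamini-Hochberg adjustment over all of them. Differences are of normalised log2 signal with the model's SE. A group in which a gene is not detected has only a bound, the brighter mean over the lowest detected signal. The number of arrays limits the precision. The fit was also run on simulated data with known changes and noise independent between arrays, which cannot test spread that arrays share.

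Values on every array are given for genes past the threshold, and their range for some of these and for the other antioxidant genes. Genes of the 7 functional lists outside the families are named where they passed, with Ahr, Nfe2l2, Nr1i2 and Nr1i3 in any case. The genes, the 14 functional and marker lists, the motifs and the alternatives were chosen with earlier results of these data known. Alternatives were no background correction, another scaling, the submitters' values, another filter, probe rule, variance model and threshold, a block for chip or for replicate number, the chips apart, each array left out, and 3 hemoglobin-rich arrays left out.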

Additional observations from a re-analysis of the deposited data

Results flagged for a closer look

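Among the 25 genes examined array by array, 75 groups of 4 arrays were searched for a single array far from the other 3, judged by its gap over the group's range against Dixon's critical value. Chance alone gives about 1 such group in 20, and 7 were found. IL-4 2 was apart in 3 of them, at 10.91 for Aldh3a2 (the other 3 read 11.02 to 11.04), 5.01 for Cyp4a12a (5.24 to 5.28) and 7.08 for Gsto2 (6.70 to 6.74). IL-13 3 read 7.46 for Cyp4f16 (7.26 to 7.29) and 7.02 for Gstp3 (6.34 to 6.36). IL-13 4 read 6.07 for Cyp4f14 (6.44 to 6.47), and control 1 read 10.19 for Gclm (10.02 to 10.05). The call of Cyp4f16 with IL-13 is the one that ended without the array named here (adjusted p = 0.0529 without IL-13 3).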

How the results depend on the processing

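No called gene turned its sign under any of the alternatives run, which all reuse the 12 arrays that gave the calls. IL-13 against IL-4 gave 0 calls among the 73 genes under all of these alternatives. Leaving out 1 array at a time gave 8 to 11 rises and 4 to 6 falls with IL-4 and 10 to 14 rises and 6 to 7 falls with IL-13. On single chips, with 2 arrays a group, calls were fewer: with IL-4 8 rises on chip 1 and 3 on chip 2, with 3 falls on each, and with IL-13 7 and 6 rises, with 3 falls on each. The submitters' values gave 8 rises with IL-13. Deviations of same-numbered arrays of different groups had correlations of -0.146 to 0.208 (12 pairs, 5 above 0.1). Such weak values cannot decide whether the numbers pair the samples, because noise between arrays can hide a shared culture. With the replicate block 9 genes rose (8 shared with the fit without it) and 6 fell (6 shared) with IL-4, and 13 rose (12 shared) and 6 fell (6 shared) with IL-13. The calls that this block ended were those of Gsto1 with IL-4 (adjusted p = 0.0585) and of Cyp1b1 (0.0544) and Cyp4b1-ps2 (0.0504) with IL-13.

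Medians of families, all near 0, moved as follows. With the submitters' values they were -0.02 for all 73 genes and 0.0232 for GSTs with IL-4, and 0.0093 for all genes of the set, 0.0326 for P450s, -0.0003 for GSTs and 0.0227 for aldehyde dehydrogenases with IL-13. Without background correction the IL-13 medians were 0.0492 for aldehyde dehydrogenases and -0.0169 for ABCC transporters. Over genes detected on all arrays ABCC transporters stood at -0.1697 and -0.2082, and P450s with IL-13 at 0.2079, this filter leaving fewer genes. Chip 1 alone gave 0.2094 for GSTs and 0.1965 for antioxidant genes with IL-4 and -0.0493 for aldehyde dehydrogenases with IL-13, and chip 2 alone 0.2239 for P450s and 0.1912 for aldehyde dehydrogenases with IL-13. Without control 4, IL-4 2 and IL-4 4 the medians were 0.1123 for antioxidant genes with IL-4, and 0.119 for GSTs and 0.0361 for aldehyde dehydrogenases with IL-13. Leaving out single arrays gave ABCC medians of -0.0639 to 0.0253 with IL-4 and -0.0698 to -0.0102 with IL-13, and with IL-13 0.0899 to 0.169 for P450s, 0.031 to 0.119 for GSTs, 0.0361 to 0.1308 for aldehyde dehydrogenases and -0.0669 to 0.1269 for antioxidant genes. The cause of the other shifts was not tested. Genes near the background, such as those detected on 4 to 11 arrays, have compressed differences, and 109 of the 182 genes could not be compared.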
